A study of Homo sapiens with 4 samples.

Results

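Transcripts annotated as retained introns were compared with the protein-coding transcripts of the same genes in A549 cell clusters with and without knockdown of DUSP23. A transcript was a member when the deposited table gave it the Ensembl biotype retained_intron and listed a protein_coding transcript under the same gene ID, which held for 10188 of 56389 listed transcripts. These transcripts belonged to 4777 of the 13155 genes with a listed protein-coding transcript, and each such gene was treated as 1 member. For each member and library the retained-intron FPKM (fragments per transcript, divided by its length and by the library's size) was summed and divided by the FPKM of all listed transcripts of the gene, and this percentage is called the retained-intron share.

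In intron retention an intron that is usually removed stays in a polyadenylated RNA. Such RNAs can be detained in the nucleus and spliced later, or be exported and broken down by nonsense-mediated decay (NMD) when the intron brings in a premature stop codon. Genes for splicing regulators, and OGT, the enzyme that adds O-GlcNAc to proteins, are known to control their own output in this way. The Ensembl class is wider than this process, because many of its transcript models are short fragments that run from an exon into an intron.

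A549 is a human lung adenocarcinoma line, and the libraries came from its tumour cell clusters. The control group, shMock, carried a control construct and has the genotype label Wild type, and the other group, shDUSP23, carried a short hairpin RNA against DUSP23, a dual-specificity phosphatase. Both groups have the suffix SUS in their titles, whose meaning is not given in the sources used here, and neither the hairpin sequence nor the number of clones is given there. Each group had 2 libraries, and nothing says that these came from separate cultures, so a p-value here reflects the spread among libraries alone, which may be technical. DUSP23 itself had no retained-intron transcript, and its FPKM was 29.96 and 35.9 in shMock and 1.71 and 2.71 in shDUSP23. Depth, recovered from the steps of low FPKM values, was 21286400 and 25209600 fragments in shMock and 26970600 and 42156400 in shDUSP23, and a tested member had a median of 101 to 207 fragments in a library. The epithelial keratins KRT8, KRT18 and KRT7 stood between 370 and 1153 FPKM and the epithelial markers EPCAM and KRT19 between 3.47 and 8.96. Of the other markers NKX2-1, SFTPB, SFTPC, PTPRC, CD3E, PECAM1, VWF and CDH5 were not among the listed genes. The monocyte marker CD14 was at 4.68 and 8.0 FPKM in shMock and 0.983 and 0.995 in shDUSP23. NAPSA and COL1A1 stood between 1.96 and 4.66 FPKM and COL3A1 and PDGFRB at 0.378 or less.

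The forms of retention in this class are shown with sequences of members that carry the results below. All were read from the GENCODE 29 transcript sequences (GRCh38) and are written 5′ to 3′ on the gene's strand, with intron bases in capitals and exon bases in lower case. EEF1A1-207, the most abundant retained-intron transcript of the translation elongation factor gene EEF1A1, held, among others, intron 4 of 7 whole, an intron of 83 bases inside the coding sequence (chr6:73518849-73518931, minus strand). PCBP2-220, from the gene of a poly(C)-binding protein, held intron 3 of 14, with 90 bases (chr12:53455371-53455460, plus strand). Both are shown with 10 exon bases on both sides.
EEF1A1-207: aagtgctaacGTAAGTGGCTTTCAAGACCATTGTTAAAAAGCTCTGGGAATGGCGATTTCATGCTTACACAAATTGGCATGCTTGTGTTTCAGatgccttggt
PCBP2-220: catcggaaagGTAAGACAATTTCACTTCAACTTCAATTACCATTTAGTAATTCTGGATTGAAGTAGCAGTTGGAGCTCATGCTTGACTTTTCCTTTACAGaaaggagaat

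In other members an exon of the transcript begins or ends inside an intron, so that 1 splice site is read through and the other is not covered. For PSMB10-203 the model starts inside intron 4 of 7 (chr16:67935698-67935962, minus strand), and for PNN-204 inside intron 6 of 8 (chr14:39177917-39179090, plus strand). For LIG1-218 it starts inside intron 25 of 27 (chr19:48117782-48119136, minus strand), for TFG-206 inside intron 6 of 7 (chr3:100736705-100744832, plus strand), and for STK19-215 inside intron 2 of 7 (chr6:31972512-31972620, plus strand). ZFYVE16-207 ends inside intron 4 of 17 (chr5:80440033-80443122, plus strand). In TMED2-204 an inner exon runs 43 bases into intron 3 of 3 (chr12:123590450-123596604, plus strand), and the transcript goes on beyond that intron. The 30 intron bases next to the splice site that is read through and 10 exon bases are shown for each, since these genes carry the differences described below.
PSMB10-203: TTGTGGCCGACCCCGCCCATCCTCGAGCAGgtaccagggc
PNN-204: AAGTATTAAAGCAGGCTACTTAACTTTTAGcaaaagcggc
LIG1-218: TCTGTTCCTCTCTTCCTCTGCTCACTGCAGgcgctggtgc
TFG-206: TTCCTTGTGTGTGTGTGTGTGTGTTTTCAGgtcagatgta
STK19-215: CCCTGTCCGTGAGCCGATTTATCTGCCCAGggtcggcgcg
TMED2-204: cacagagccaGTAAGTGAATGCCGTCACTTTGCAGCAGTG
ZFYVE16-207: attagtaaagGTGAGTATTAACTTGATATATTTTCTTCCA

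For longer introns that are held whole, the 9 bases of the donor site (3 of the exon, 6 of the intron) are shown. They are intron 11 of 12 of DDX5 (1236 bases, chr17:64500774-64502009, minus strand), intron 9 of 11 of NONO (530 bases, chrX:71297939-71298468, plus strand), intron 2 of 5 of SRSF4 (888 bases, chr1:29159487-29160374, minus strand) and intron 4 of 21 of OGT (3271 bases, chrX:71544636-71547906, plus strand).
DDX5-215 donor: tagGTTAGT
NONO-211 donor: gcgGTATAT
SRSF4-208 donor: gcaGTAAGC
OGT-210 donor: aagGTAGGT

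Of the retained-intron transcripts of members, 9469 could be placed on this annotation, and 97.5% of these had the same start and end in the deposited table. Of the coding transcripts whose introns were used only 68.5% did, and introns were taken as GENCODE 29 gives them. A whole intron of a coding transcript lay inside 3746 of them (39.6%), and 2391 held exactly 1. Another 5413 (57.2%) held no whole intron but had an exon end inside one. In 5246 of these it was the start or end of the transcript, and in 167 only an inner exon end. The whole introns numbered 5423 in 2321 genes. They were short, with a median of 302 bases and an interquartile range of 143 to 682, beside a median of 926 bases (266 to 2663) for the 30222 other introns of the same coding transcripts. Of the retained ones 98.0% had GT-AG ends and 1.24% GC-AG ends, and their median GC content was 55.8%. First introns made up 8.65% of the retained and 12.3% of the other introns, and last introns 10.97% and 8.59%. These are features of the annotation and of which transcripts were listed, given without a test.

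Retained-intron transcripts made up a modest part of most genes' FPKM. Over all members the median share was 11.3% and 12.6% in shMock and 11.1% and 10.2% in shDUSP23. A mean share over 50% was seen in 263 members (5.51%) and one under 5% in 1199 (25.1%). Of the members, 2297 listed a single retained-intron transcript, and the maximum was 18. The interquartile range of the share lay between 4.29% and 24.2% in shMock 1 and between 3.12% and 24.4% in shDUSP23 2.

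The direction of the group difference depended on how the share was summarised. The median share of the 3393 members tested was 15.3% and 17.0% in shMock and 14.8% and 14.6% in shDUSP23, so that the values of shDUSP23 were the lower ones without overlap. Summed over all members, in contrast, retained-intron FPKM took 10.01% and 10.3% of gene FPKM in shMock and 11.3% and 11.1% in shDUSP23, a difference of 1.09 percentage points in the other direction. With the weight of each gene held at its mean over the libraries the summed share was 10.6%, 11.2%, 10.7% and 10.6% in the same order, and the groups overlapped. Without ribosomal protein genes it was 11.2%, 11.9%, 12.1% and 11.8%, and the groups overlapped as well. With 2 libraries against 2 an exact permutation test cannot give a two-sided p below 0.333, so these values are not tested.

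**Figure D1:**
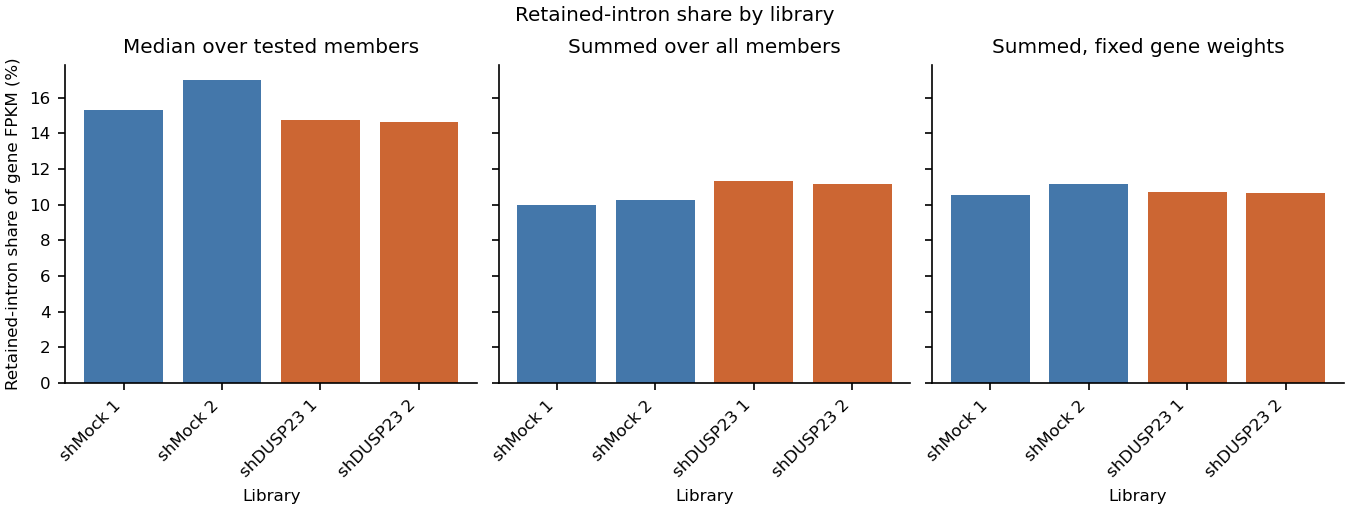
Bars give the retained-intron share of gene FPKM in percent for each library (blue shMock, orange shDUSP23): the median over tested members, the share summed over all members, and the summed share with gene weights held fixed. The shDUSP23 bars are lower in the left panel (14.8% and 14.6% against 15.3% and 17.0%) and higher in the middle panel (11.3% and 11.1% against 10.01% and 10.3%), and the groups overlap in the right panel.

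No member's share changed between the groups by the test used. The share was tested as log2((retained-intron FPKM + 0.5)/(gene FPKM + 0.5)) with limma over all 7707 non-coding classes of genes with a coding transcript and a class mean of at least 1 FPKM. Of the members 3393 (71.0%) passed this filter and 1384 did not. With limma and Benjamini-Hochberg adjustment 0 of 3393 were called at an adjusted p under 0.05, as against 0% of all classes, and the lowest adjusted p was 0.276. At an unadjusted p under 0.05 there were 154 members with a higher share in shDUSP23 (4.54%, beside 7.49% of all classes) and 161 with a lower share (4.75%, beside 3.84%). In 665 members (19.6%, beside 24.5%) both shDUSP23 shares were above both shMock shares, and in 819 (24.1%, beside 18.9%) both were below.

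The share changes of members were centred slightly below 0. Their median was -0.07 on the log2 scale, with an interquartile range of -0.41 to 0.27, beside 0.02 over all classes, and the median standard error of a single member was 0.37. A log2 change of at least 1 in size was fitted for 136 members upward and 204 downward. Of the 204, 65 were listed at 0 in at least 1 shDUSP23 library, and of the 136, 21 in at least 1 shMock library. Zeros were most frequent in the deepest library: 2008 retained-intron transcripts were listed at 0 in shDUSP23 2, as against 815 in shDUSP23 1 and 393 and 580 in shMock. Among the 3208 members above 0 in all 4 libraries, a restriction chosen after seeing the data, the median change was -0.05. The part of these zeros in the lower shares was not tested.

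The other non-coding classes moved differently. Transcripts of the biotype nonsense_mediated_decay, coding models whose stop codon lies upstream of a splice junction, had a median share change of 0.16 over 2177 genes, with 256 higher and 47 lower at an unadjusted p under 0.05. Transcripts of the biotype processed_transcript had a median of 0.04 over 2113 genes, with 166 higher and 85 lower. Over all 7707 classes, which include these, 7.49% were higher and 3.84% lower at that threshold. In the 1072 genes with both classes tested, the median was -0.08 for retained-intron and 0.17 for nonsense_mediated_decay transcripts. The summed share of the nonsense_mediated_decay class was 9.99% and 9.66% in shMock and 12.6% and 12.4% in shDUSP23. The classes of a gene share its denominator, and the difference between classes was not tested.

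**Figure D2:**
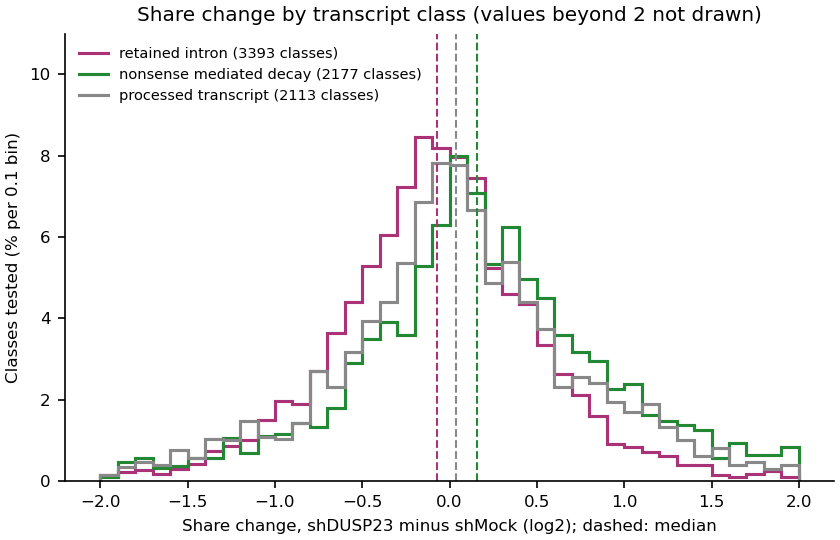
Histograms of the share change, shDUSP23 minus shMock on the log2 scale, for 3 transcript classes, as a percentage of the classes tested in bins of 0.1, with dashed lines at the medians. The retained-intron curve (median -0.07) lies to the left of those for processed transcripts (0.04) and nonsense-mediated decay (0.16).

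The levels behind the shares differed between the groups in a minority of members. Levels were tested with limma as log2(FPKM + 0.5) over 21328 classes of all genes. Calls were made at a Benjamini-Hochberg adjusted p under 0.05. Retained-intron sums rose in 161 members (4.75%, beside 10.6% of all classes) and fell in 239 (7.04%, beside 11.3%). Of the 4624 coding sums tested 628 rose (13.6%, beside the same 10.6%) and 806 fell (17.4%, beside 11.3%). Both sums were called in the same direction in 247 members, 103 upward and 144 downward, and in opposite directions in 6. Retained-intron sums alone were called in 54 members upward and 93 downward, and coding sums alone in 381 upward and 467 downward. Fewer cells of a type and less RNA per cell cannot be told apart in these bulk libraries. Without shMock 1 or without shMock 2 the limma fit called 0 members in either class, with lowest adjusted p-values of 0.0583 and 0.0805. Deposited values summed to 438604 to 578361 FPKM a library; with libraries scaled to equal sums, which moved the median change of all classes from 0.01 to 0.32, retained-intron sums rose in 353 and fell in 130 members and coding sums rose in 1178 and fell in 449.

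Members were also grouped by the call of their coding sum. In the 615 tested members whose coding sum fell, the median log2 change was -1.0 for the coding sum and -0.70 for the retained-intron sum, and the median share change was 0.20. In the 486 whose coding sum rose, the corresponding values were 0.95, 0.59 and -0.35. In the 2292 others they were -0.01, -0.06 and -0.08. The groups were chosen by the coding change, which makes its median large, the pseudocount shrinks changes of the lower retained-intron values more, and the coding sum is part of the share's denominator. The medians are a description, and from them no difference between the classes can be read.

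In 6 members, picked out because of these calls, the retained-intron and coding sums were called in opposite directions. The retained-intron sum rose while the coding sum fell in ZFYVE16 (an endosomal adaptor of TGF-beta and BMP signalling), PNN (pinin, a protein of nuclear speckles and cell junctions), BECN1 (a core autophagy protein) and STK19. In ZFYVE16 the retained-intron FPKM was 4.63 and 5.62 in shMock and 11.7 and 9.79 in shDUSP23, and the coding FPKM was 15.5 and 13.1 in shMock and 6.76 and 6.89 in shDUSP23. Both sums separated the groups without overlap, and the share was 18.9% and 25.8% in shMock and 54.6% and 55.1% in shDUSP23. The log2 level change was 1.0 ± 0.20 (SE) for the retained-intron sum (limma adjusted p = 0.028) and -1.01 ± 0.17 (SE) for the coding sum (adjusted p = 0.0181).

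PNN had 1 retained-intron transcript, the PNN-204 shown above. Its FPKM was 2.26 and 2.04 in shMock and 4.57 and 5.69 in shDUSP23, with coding FPKM of 51.1 and 54.8 in shMock and 30.5 and 25.6 in shDUSP23. The retained-intron sum rose by 1.08 ± 0.26 (SE) on the log2 scale (limma adjusted p = 0.0417), the coding sum changed by -0.91 ± 0.13 (SE) (adjusted p = 0.0133), and the share was 4.23% and 3.59% in shMock and 13.1% and 18.2% in shDUSP23. In BECN1 the retained-intron FPKM was 12.7 and 16.4 in shMock and 23.7 and 24.5 in shDUSP23 and the coding FPKM 62.2 and 60.2 in shMock and 46.2 and 45.7 in shDUSP23, again without overlap (limma adjusted p = 0.0387 and 0.0457). Its transcript BECN1-203, which holds intron 4 of 11 whole, was at 5.07 and 5.27 in shMock and 10.3 and 9.07 in shDUSP23. STK19 was mostly represented by retained-intron transcripts: its retained-intron FPKM was 16.1 and 20.9 in shMock and 43.2 and 49.4 in shDUSP23, while its coding transcripts were at 2.29 and 2.54 in shMock and listed at 0 in both shDUSP23 libraries. STK19-215 was at 4.83 and 7.02 in shMock and 22 and 21.6 in shDUSP23, whereas STK19-205, which holds intron 1 of 7 whole, had a share of 27.1% and 31.7% in shMock and 16.1% and 20.98% in shDUSP23. STK19 overlaps DXO on the other strand, and the strandedness of the libraries is not given in the sources used here, so reads of the pair may not be separable. The same limit holds for ZFYVE16 here, and for RPL4, RPS23, RPL32, DDX5, PCBP2, MAT2A, RSAD2, TMED2, MGST1, PIP4P1, MCM7 and LIG1 below, each of which overlaps a gene on the other strand.

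The reverse pattern was called in PSMB10, a catalytic subunit of the immunoproteasome, and TFG, a protein of the endoplasmic reticulum exit sites. PSMB10 retained-intron FPKM was 11.6 and 12.5 in shMock and 3.09 and 2.73 in shDUSP23, and its coding FPKM was 18.1 and 20.4 in shMock and 27.6 and 33.4 in shDUSP23. The share was 38.9% and 38.03% in shMock and 10.1% and 7.56% in shDUSP23, without overlap, and its log2 change was -1.97 ± 0.25 (SE) (limma adjusted p = 0.298). The difference lay in PSMB10-203, at 9.94 and 10.8 in shMock and 1.44 and 0 in shDUSP23. PSMB10 overlaps AC040162.1 on the same strand, so reads of these genes may not be separable. In TFG the retained-intron FPKM was 11.6 and 13.4 in shMock and 6.93 and 6.53 in shDUSP23 and the coding FPKM 62.01 and 69.9 in shMock and 90.3 and 87.9 in shDUSP23, so that the share was 15.8% and 16.1% in shMock and 7.12% and 6.91% in shDUSP23. These 6 calls depended on the setting: 3 of the 6 were kept with equal sums (PNN, PSMB10 and STK19), 1 without an intensity trend in limma (STK19), and 0 without either shMock library.

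**Figure D3:**
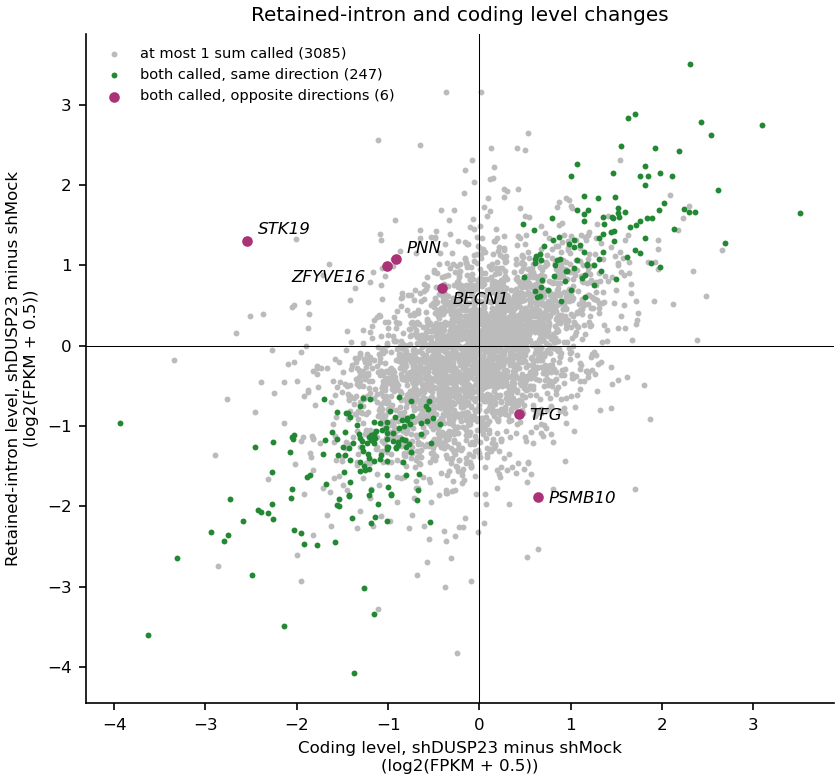
Each point is a tested member with a tested coding sum; the x axis is the change of the coding level and the y axis that of the retained-intron level, shDUSP23 minus shMock on the log2(FPKM + 0.5) scale. Most members with both sums called lie in the lower left and upper right (247), and the 6 named genes lie in the upper left and lower right.

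The members with the highest retained-intron FPKM were mostly genes of the translation machinery, and the retained-intron sums of the 6 highest fell. These 6, EEF1A1, RPL4, RPS23, RPL32, RPL14 and HNRNPH1, held 9.89% of all retained-intron FPKM of members. EEF1A1 retained-intron FPKM was 1013 and 1243 in shMock and 540.4 and 469.6 in shDUSP23, with a log2 change of -1.16 ± 0.15 (SE) (limma adjusted p = 0.00967). Its share was 23.96% and 24.4% in shMock and 25.7% and 22.4% in shDUSP23, with overlapping groups and a log2 change of -0.01 ± 0.07 (SE) (adjusted p = 0.955). RPS23, a protein of the small ribosomal subunit, had a share of 42.01% and 37.6% in shMock and 39.9% and 39.4% in shDUSP23, and RPL32, of the large subunit, 30.6% and 33.5% in shMock and 29.98% and 34.9% in shDUSP23, both with overlapping groups. In RPL14 a single model, RPL14-208, carried most of the gene, at 88.9% and 87.2% in shMock and 85.1% and 84.6% in shDUSP23 of its FPKM.

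RPL4 differed from these in that its share was higher in shDUSP23, at 61.6% and 60.9% in shMock and 69.8% and 78.3% in shDUSP23, with a log2 change of 0.27 ± 0.06 (SE) (unadjusted p = 0.00803, limma adjusted p = 0.362). Its main model RPL4-203 kept a share of 40.3% and 39.6% in shMock and 41.2% and 37.3% in shDUSP23, whereas RPL4-205 was at 15.5% and 15.4% in shMock and 22.4% and 33.8% in shDUSP23. HNRNPH1, an RNA-binding splicing regulator, had a lower share in shDUSP23, at 71.97% and 77.7% in shMock and 59.6% and 66.8% in shDUSP23, and its retained-intron sum fell by 1.27 on the log2 scale (limma adjusted p = 0.00804). Ribosomal protein genes and EEF1A1 have many near-identical processed copies in the genome, so their values depend on how reads were shared between copies.

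The splicing factor genes DDX5, NONO and PCBP2 were among the 12 members with the smallest share p, each with a lower share in shDUSP23 and a retained-intron sum that fell. DDX5, an RNA helicase of the spliceosome and of transcription complexes, had retained-intron FPKM of 168 and 195 in shMock and 95.6 and 99.4 in shDUSP23. Both shDUSP23 values were below both shMock values, and the retained-intron sum fell, with a log2 change of -0.89 ± 0.11 (SE) (limma adjusted p = 0.00972). Its coding FPKM was 144 and 139 in shMock and 113 and 131 in shDUSP23 (adjusted p = 0.221), and its share was 39.3% and 43.99% in shMock and 27.1% and 25.9% in shDUSP23. The share's log2 change was -0.65 ± 0.08 (SE), with an unadjusted p of 6.69e-04 and a limma adjusted p of 0.298. DDX5-215, which holds intron 11 whole, was at 116 and 128 in shMock and 64.1 and 62.5 in shDUSP23.

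NONO, a paraspeckle protein, had retained-intron FPKM of 26.9 and 29.2 in shMock and 12.9 and 11.5 in shDUSP23, and this sum fell by 1.17 on the log2 scale (limma adjusted p = 0.00875). Its coding FPKM, at 138 and 117 in shMock and 143 and 139 in shDUSP23, was not called, and its share was 15.95% and 19.2% in shMock and 7.92% and 7.47% in shDUSP23 (adjusted p = 0.302). NONO-211, which holds intron 9 whole, was at 16.8 and 12.4 in shMock and 8.804 and 5.66 in shDUSP23. PCBP2 retained-intron FPKM was 41.4 and 42.3 in shMock and 17.6 and 14.7 in shDUSP23, which fell (limma adjusted p = 0.00705), and its share was 18.2% and 19.2% in shMock and 10.5% and 8.89% in shDUSP23. In both genes the groups' shares did not overlap. The transcript PCBP2-220, whose retained intron is shown above, was at 14.4 and 12.1 in shMock and 8.33 and 5.06 in shDUSP23.

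LUC7L, a component linked to the U1 snRNP, had a share of 25.1% and 29.8% in shMock and 9.61% and 12.9% in shDUSP23, and SRSF4, an SR protein that binds exonic enhancers, had 15.7% and 21.5% in shMock and 7.46% and 7.13% in shDUSP23, both lower in each shDUSP23 library. The retained-intron sum of LUC7L fell (limma adjusted p = 0.0188), whereas that of SRSF4 was not called (adjusted p = 0.116). SRSF3, another SR protein, had a share of 36% and 39.99% in shMock and 30.3% and 32.02% in shDUSP23, and both its retained-intron and its coding sum fell (limma adjusted p = 0.0222 and 0.00507); the direction of its share turned when coding FPKM alone was the denominator, with a log2 change of 0.63. OGT had a share of 41.2% and 42.9% in shMock and 48.9% and 44.8% in shDUSP23, nearly all of it from OGT-210, which holds intron 4 whole, at 38.5 and 38.6 in shMock and 41.3 and 32.8 in shDUSP23. MAT2A, which makes S-adenosylmethionine, had 12.5% and 11.5% in shMock and 8.36% and 12.99% in shDUSP23. The OGT shares lay higher in both shDUSP23 libraries and the MAT2A shares overlapped, and neither was called (limma adjusted p = 0.637 and 0.807).

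As groups these lists had members in both directions. Among 26 tested hnRNPs and RNA-binding regulators 3 had a higher and 5 a lower share at an unadjusted p under 0.05, beside 4.54% and 4.75% of all members, with a median of -0.09. For 31 core spliceosome genes the counts were 3 and 5 and the median -0.03, and for 13 SR proteins 0 and 2, with a median of 0.09. None of the 6 tested splicing kinases and genes with detained introns, nor of the 8 tested NMD and exon junction factors, had an unadjusted p under 0.05, and their medians were -0.12 and -0.39. The median share of the 8 was 14.9% and 16.9% in shMock and 15.1% and 6.27% in shDUSP23, so that only shDUSP23 2 lay below. Of the 8, 1 lay entirely above and 2 entirely below shMock, beside 24.5% and 18.9% of all classes. In the last list SMG9, a regulator of the NMD kinase SMG1, had a share of 59.4% and 62.8% in shMock and 52.6% and 39.5% in shDUSP23, and UPF3A, an exon junction adaptor, 24.4% and 21% in shMock and 14.7% and 14.6% in shDUSP23. The shares of both were lower in each shDUSP23 library, the coding sum of SMG9 rose (limma adjusted p = 0.0096) and the retained-intron sum of UPF3A fell (adjusted p = 0.042). With equal sums the retained-intron calls of SRSF3 and UPF3A were lost (limma adjusted p = 0.101 and 0.118).

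**Figure D4:**
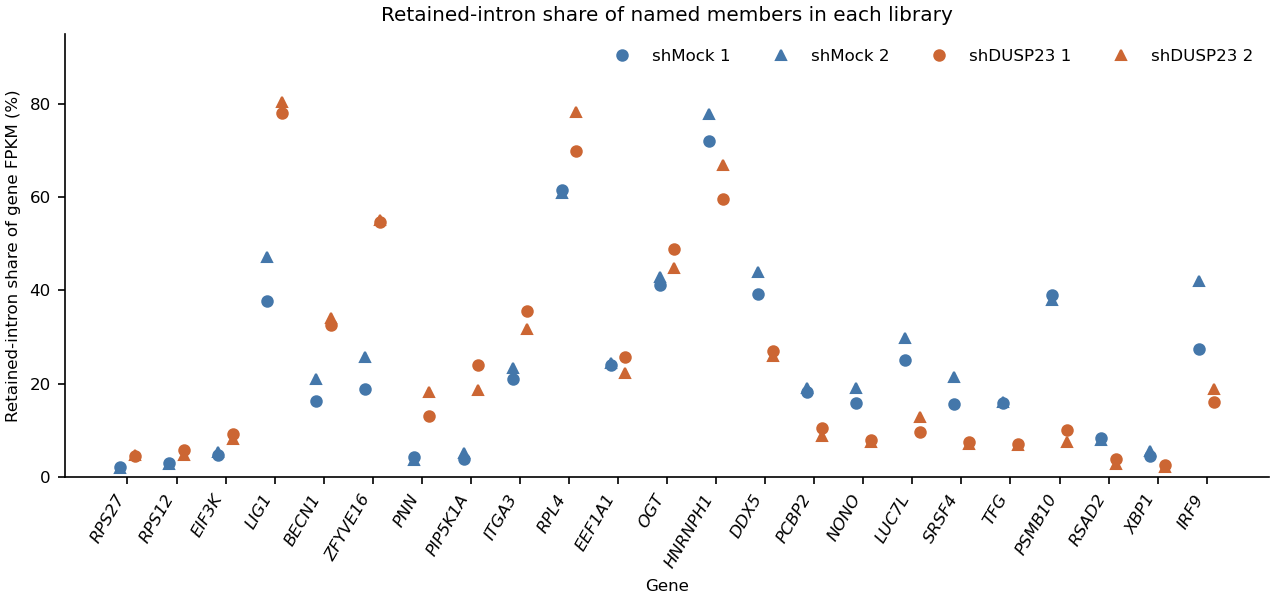
Points give the retained-intron share of gene FPKM in percent for 23 named members, blue for shMock and orange for shDUSP23, with circles for library 1 and triangles for library 2. LIG1, ZFYVE16 and PNN lie higher in shDUSP23, PSMB10, DDX5 and NONO lie lower, and EEF1A1 overlaps.

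The shares of cytosolic ribosomal protein genes were small at the median, although those of RPL4, RPS23, RPL32 and RPL14 given above were large. More members of the list had a higher than a lower share in shDUSP23. The median share of the list was 1.26% and 1.11% in shMock and 1.65% and 1.84% in shDUSP23. Of 62 tested members 16 had a higher and 1 a lower share at an unadjusted p under 0.05, beside 7.49% of all classes higher and 3.84% lower. Among all 615 tested members whose coding sum fell, a group that overlaps this list, 92 were higher and 9 lower at that p. Of those 615, 192 lay entirely above and 93 entirely below shMock, and their median log2 change was 0.20. In 27 of the 62 all shDUSP23 values lay above and in 5 below the shMock values, beside 24.5% and 18.9% of all classes. The median log2 change of the list was 0.43, beside -0.07 over all members. Coding sums fell in 63 of the 66 genes and rose in 0, and retained-intron sums fell in 25 of 62 and rose in 0 (limma, adjusted p under 0.05). Over all classes 11.3% fell and 10.6% rose. The median log2 changes of the list were -1.28 for coding and -0.88 for retained-intron sums. These levels were also lower at the median with equal sums (-0.94 and -0.57). With the GC and length correction the median share change was 0.25, with 9 higher and 3 lower members, and without shMock 2 there were 6 higher and 1 lower.

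RPS27 of the small subunit had the smallest p of all members for its share, 2.25% and 2.03% in shMock and 4.46% and 4.69% in shDUSP23. Its log2 change was 1.10 ± 0.11 (SE), with an unadjusted p of 2.34e-04 and a limma adjusted p of 0.276. Both shDUSP23 shares were above both shMock shares, while its retained-intron FPKM, at 43.4 and 49.1 in shMock and 41.9 and 38 in shDUSP23, was not called (adjusted p = 0.278). Its coding FPKM fell, at 1884 and 2363 in shMock and 895 and 767 in shDUSP23 (limma adjusted p = 0.00864). RPS12 had the same pattern: a share of 2.93% and 2.74% in shMock and 5.78% and 4.76% in shDUSP23, retained-intron FPKM of 40.6 and 46.3 in shMock and 33.04 and 25.5 in shDUSP23 and coding FPKM of 1347 and 1643 in shMock and 539 and 510.3 in shDUSP23.

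Among nuclear-encoded genes of oxidative phosphorylation, too, more shares were higher than lower in shDUSP23. Of 36 tested members 6 had a higher and 0 a lower share at an unadjusted p under 0.05, beside 7.49% of all classes higher and 3.84% lower. Among all 615 tested members whose coding sum fell, a group that overlaps this list, 92 were higher and 9 lower at that p. Of those 615, 192 lay entirely above and 93 entirely below shMock, and their median log2 change was 0.20. Of the 36 members in this list 12 lay entirely above and 4 entirely below shMock, beside 24.5% and 18.9% of all classes. The median log2 change of the list was 0.35. Coding sums of the list fell in 29 of 43 genes and retained-intron sums in 2 of 36, beside 11.3% of all classes (limma, adjusted p under 0.05). With the GC and length correction the median was 0.22 and the counts 1 and 1, and without either shMock library 0 members were higher. The share of UQCRB, a subunit of complex III, was 5.68% and 6.68% in shMock and 9.64% and 8.93% in shDUSP23, and that of COX5B, of complex IV, 1.503% and 1.29% in shMock and 3.55% and 2.85% in shDUSP23, both without overlap. Mitochondrially encoded transcripts, which are no members, made up 12.3% and 13.1% of all FPKM in shMock and 8.12% and 7.97% in shDUSP23, and the part of this in the result was not tested.

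Of 27 tested translation factors 1 had a higher and 0 a lower share at an unadjusted p under 0.05, beside 7.49% of all classes higher and 3.84% lower. Of the 27, 8 lay entirely above and 3 entirely below shMock, beside 24.5% and 18.9% of all classes, and the median was 0.03. The member higher at that p was EIF3K, a subunit of initiation factor eIF3. Its share was 4.79% and 5.45% in shMock and 9.13% and 8.09% in shDUSP23, and its coding sum fell (limma adjusted p = 0.00956). EIF3F, another eIF3 subunit, had 20.3% and 19.3% in shMock and 25.1% and 25.9% in shDUSP23, and the direction of its share turned with the GC and length correction, to -0.20.

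Among interferon-stimulated and MHC class I genes more shares were lower than higher in shDUSP23. Coding sums rose in 17 of the 34 genes and fell in 1, and retained-intron sums rose in 5 of 31 and fell in 0 (limma, adjusted p under 0.05). Over all classes 10.6% rose and 11.3% fell. Shares were higher in 0 and lower in 4 of 31 members at an unadjusted p under 0.05, beside 7.49% of all classes higher and 3.84% lower. Among all 486 tested members whose coding sum rose, a group that overlaps this list, 5 were higher and 50 lower at that p. Of those 486, 55 lay entirely above and 179 entirely below shMock, and their median log2 change was -0.35. Of the 31 members in this list 2 lay entirely above and 11 entirely below shMock, beside 24.5% and 18.9% of all classes. The median log2 change of the list was -0.27. Without shDUSP23 2 the median was -0.10 with 1 lower member, and without shMock 2 it was -0.22 with 0 lower and 1 higher. IRF9, the DNA-binding subunit of the interferon response complex ISGF3, had a share of 27.4% and 41.98% in shMock and 16.1% and 18.9% in shDUSP23, with coding FPKM of 16.1 and 14.3 in shMock and 28.9 and 28.3 in shDUSP23. TAPBP, the chaperone that loads peptides onto MHC class I, had 9.398% and 10.5% in shMock and 5.95% and 6.05% in shDUSP23. In both genes the shares did not overlap and the coding sum rose (limma adjusted p = 0.0133 and 0.0218), while the retained-intron sum was not called. IRF9 overlaps AL136295.5 on the same strand, so reads of these genes may not be separable.

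RSAD2, the antiviral enzyme viperin, is not in that list but was among the 12 members with the smallest share p, and was picked for that. Its retained-intron FPKM was 11.1 and 8.95 in shMock and 30.3 and 20.4 in shDUSP23 and its coding FPKM 120.3 and 99.4 in shMock and 725 and 686 in shDUSP23. Both sums rose (limma adjusted p = 0.0227 and 0.0045), by 1.27 and 2.68 on the log2 scale, and the share was 8.32% and 7.96% in shMock and 3.96% and 2.84% in shDUSP23. The same selection held TMED2, a cargo receptor of the early secretory pathway, whose retained-intron FPKM was 7.0 and 7.37 in shMock and 0 and 0.09 in shDUSP23, with coding FPKM of 134 and 139.7 in shMock and 112 and 119 in shDUSP23. MGST1, a membrane-bound glutathione transferase, had 6.89 and 9.13 in shMock and was listed at 0 in both shDUSP23 libraries. PIP4P1, a lipid phosphatase, had a share of 19.1% and 18.3% in shMock and 6.02% and 6.34% in shDUSP23, and PIP5K1A, a lipid kinase of phosphoinositide synthesis, 3.98% and 5.202% in shMock and 24.1% and 18.6% in shDUSP23. None of their shares was called, with limma adjusted p-values of 0.276 to 0.314.

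**Figure D5:**
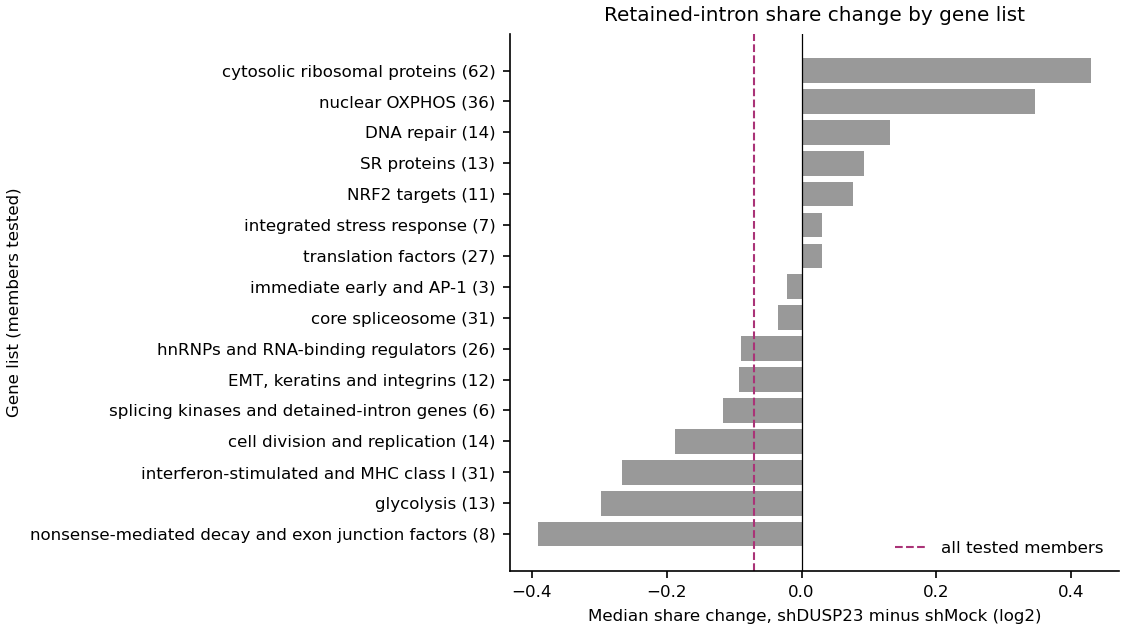
Bars give the median retained-intron share change, shDUSP23 minus shMock on the log2 scale, of the tested members of each gene list, with the number tested in brackets and a dashed line at the median of all tested members (-0.07). Cytosolic ribosomal proteins (0.43) and nuclear OXPHOS genes (0.35) are highest. The list of NMD and exon junction factors (-0.39) has 8 members, whose median share lay below both shMock libraries in shDUSP23 2 only.

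Other lists held few members with an unadjusted p under 0.05, where 7.49% of all classes were higher and 3.84% lower. In cell division and replication (14 tested) 1 was higher and 0 lower, and coding sums fell in 13 of 20 genes, beside 11.3% of all classes. The 1 was CCNB1, cyclin B1, with a share of 3.54% and 4.41% in shMock and 13.4% and 35.6% in shDUSP23, where the shDUSP23 libraries lay far apart. Its coding FPKM fell from 69.2 and 72.3 to 13.4 and 13.2 (limma adjusted p = 0.0045). Its retained-intron FPKM overlapped, at 2.54 and 3.34 in shMock and 2.08 and 7.31 in shDUSP23, and was not called (limma adjusted p = 0.644). MCM7, a subunit of the replicative helicase, had 13.9% and 10.7% in shMock and 14.7% and 25.9% in shDUSP23 and its coding sum fell (adjusted p = 0.0155). Among 14 DNA repair members 1 was higher and 0 lower: LIG1, the ligase that joins Okazaki fragments. LIG1 had retained-intron FPKM of 6.94 and 10.7 in shMock and 22.3 and 24.8 in shDUSP23, a sum that rose by 1.40 on the log2 scale (adjusted p = 0.0176), and a share of 37.8% and 47.1% in shMock and 78% and 80.4% in shDUSP23. Most of it was LIG1-218, at 4.397 and 8.18 in shMock and 19.5 and 20.96 in shDUSP23, and the coding FPKM of 8.96 and 8.56 in shMock and 2.69 and 5.43 in shDUSP23 was not called (adjusted p = 0.0763). MUTYH, a glycosylase of base excision repair, had a share of 58.5% and 57.7% in shMock and 34.7% and 30.3% in shDUSP23, which was not called (limma adjusted p = 0.471). Its retained-intron FPKM was low and overlapped, at 2.06 and 2.11 in shMock and 1.91 and 2.26 in shDUSP23. The FPKM of the whole gene was 3.53 and 3.66 in shMock and 5.51 and 7.48 in shDUSP23.

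Metabolic and stress genes were mixed. For NRF2 targets (11 tested) 1 share was higher and 0 lower. Retained-intron sums fell in 6 (beside 11.3% of all classes), among them AKR1C2 (80.5 and 98.5 in shMock and 15.9 and 17.9 in shDUSP23). AKR1C2, a steroid and aldehyde reductase with near-identical paralogs, had a share of 5.49% and 4.88% in shMock and 6.33% and 6.503% in shDUSP23. In glycolysis (13 tested) 0 were higher and 2 lower, LDHA at 4.102% and 2.17% in shMock and 1.47% and 1.06% in shDUSP23 and the pyruvate kinase gene PKM at 11.1% and 14.4% in shMock and 9.77% and 8.44% in shDUSP23. The retained-intron sums of both fell (limma adjusted p = 0.0165 and 0.0248), that of PKM not with equal sums. In the integrated stress response list (7 tested) 1 was higher, DDIT4, an inhibitor of mTORC1, at 9.22% and 12.4% in shMock and 22.8% and 15.2% in shDUSP23, and 1 lower, XBP1, the transcription factor of the unfolded protein response, at 4.602% and 5.69% in shMock and 2.55% and 2.17% in shDUSP23. The retained-intron sum of XBP1 fell from 13.5 and 17.7 to 6.38 and 5.65 FPKM (limma adjusted p = 0.0146), and its coding sum was not called (adjusted p = 0.19).

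Of the 3 tested immediate early members none had an unadjusted p under 0.05: NR4A1, a nuclear receptor, had a share of 13.4% and 12.8% in shMock and 6.22% and 8.84% in shDUSP23 and ATF3, a stress-induced transcription factor, 4.68% and 4.66% in shMock and 6.31% and 5.402% in shDUSP23. ATF3 levels rose in both classes (limma adjusted p = 0.0262 and 0.0252). Among 12 tested EMT, keratin and integrin genes 1 share was higher and 3 were lower. ITGA3, the integrin alpha subunit that pairs with beta 1 to bind laminin, was the higher one, at 21.1% and 23.4% in shMock and 35.6% and 31.7% in shDUSP23, and its retained-intron sum rose (limma adjusted p = 0.0146) while its coding FPKM, 93.03 and 74.8 in shMock and 68.4 and 87.4 in shDUSP23, overlapped between groups. VIM, the intermediate filament vimentin, had 1.73% and 1.698% in shMock and 0.472% and 1.01% in shDUSP23, with a coding sum that rose (adjusted p = 0.0186); it overlaps the antisense gene VIM-AS1.

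Retained introns in members with higher and lower shares overlapped widely in length and GC content. The 208 introns held whole in 81 members with a higher share at an unadjusted p under 0.05 had a median length of 256 bases (138 to 613) and a median GC content of 55.5%. The 206 introns in 85 members with a lower share had 340 bases (176 to 639) and 52.4%, and the 4007 introns of the other tested members 274 bases (132 to 610) and 56.4%. The interquartile ranges overlapped in each case, and no test was made. Across 3325 members the share change had a Spearman rho of -0.04 with the GC content and -0.02 with the length of the retained-intron transcripts, and of -0.13 with the length of the coding transcripts. The difference between the shMock libraries alone had a rho of 0.12 with that last length. Nuclear RNAs without a coding transcript, MALAT1 and NEAT1, were at 137 and 204 and at 318 and 359 FPKM in shMock and at 163 and 138 and at 290 and 262 in shDUSP23. Other noncoding RNAs listed for the same comparison moved in both directions. MEG3 was at 123 and 123 in shMock and 191 and 178 in shDUSP23, and NORAD at 68.6 and 66.1 and at 97.9 and 99.4. SNHG1 was at 108 and 115 in shMock and 41.5 and 40.4 in shDUSP23, and GAS5 at 324 and 325 and at 190 and 148. OIP5-AS1 was at 18.6 and 18.4 in shMock and 16.7 and 13.5 in shDUSP23, and KCNQ1OT1 at 0.153 or less.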

How the data were processed

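Total RNA of 4 A549 libraries was sequenced after an mRNA library preparation, per the labels' protocols. The deposited values are FPKM per Ensembl transcript, computed by the authors and not rescaled here. Per the submitters' processing notes STAR 2.7.1a, DESeq2 1.32.0 and GRCh38 were used. The program that computed FPKM and its annotation are not given there, although the way reads were divided between overlapping transcripts of a gene sets every share. No count model was run.

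FPKM were summed per gene and biotype and tested in R 4.3.3 by limma 3.58.1 (moderated statistics with an intensity trend), with a pseudocount of 0.5 FPKM, a class mean of at least 1 FPKM, no covariates and Benjamini-Hochberg adjustment over all classes, two-sided, called at 0.05. Fold changes are shDUSP23 minus shMock on the log2(FPKM + 0.5) scale, which understates changes of low values. The fit was tested on simulated data. Depth came from the steps of low FPKM in 4981 single-transcript genes, where 82.7% to 85.2% of values up to 50 fragments were whole within 0.1. Gene sums of several transcripts need not be whole. Introns and sequences were taken from GENCODE release 29, in which 93.1% of retained-intron transcripts were found.

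The members and gene lists were chosen with earlier results of these data known. Named were the 6 members with the highest mean retained-intron FPKM and, from each list, the 2 whose share had the smallest p; a further rule for called shares found none. The 6 genes with opposite level calls and the 12 with the smallest share p were added after their values were seen. Other pseudocounts, filters, scalings, denominators, a GC and length correction, a replicate block, and leaving out each library were tried. Tables and figures were made in Python 3.11.15 with pandas 2.3.3, numpy 2.4.6 and matplotlib 3.10.9. Of the rule's genes, 1 is not reported here.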

Additional observations from a re-analysis of the deposited data

How the results depend on the processing

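The share fit called 0 members under all 19 alternatives run, with a lowest adjusted p (limma, Benjamini-Hochberg) of 0.0637. Members higher and lower at an unadjusted p under 0.05 numbered 62 and 62 with a class mean of at least 5 FPKM, where 1213 members were tested. Without a filter 208 were higher and 268 lower of 4776 members. With each transcript as a feature 247 were higher and 238 lower of 5774 transcripts. Leaving out each library in turn gave 61 to 216 higher and 33 to 375 lower members and a median share change of -0.115 to -0.0284. Level calls went from 400 to 244 (retained-intron) and from 1434 to 605 (coding) without an intensity trend, and ranged from 0 to 544 and from 0 to 1281 with a library left out; the fits without a shMock library rest on 1 control assumed to vary like the other group. The difference in the summed share was -0.20 percentage points with fixed gene weights, reversed from 1.09, and 0.43 without ribosomal protein genes; the latter alternatives, like the GC and length correction and the restriction to classes above 0, were chosen after seeing the data.

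The replicate block gave 0 share calls and 353 retained-intron and 1249 coding level calls. Deviations of same-numbered libraries had a correlation of 0.03 for shares and 0.03 for levels. Same-numbered libraries also carry a common tag in their labels. With 2 libraries in each group these values cannot show whether the libraries were paired.

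The median share change of ribosomal protein members was 0.25 with the GC and length correction, with or without the replicate block, and 0.32 to 0.40 with a library left out. That of OXPHOS members was 0.22 with either form of the correction, 0.27 and 0.45 with pseudocounts of 0.1 and 1, 0.26 at a mean of 5 FPKM, 0.29 with equal sums, 0.28 with median-ratio rescaling, 0.41 above 0 in all libraries, 0.43 with the coding denominator and 0.43 as log-odds, and 0.28 to 0.38 with a library left out. Interferon members gave -0.39 to -0.10 with a library left out.

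Of 868 values of 49 named members 12 were reversed, in 6 members, none of them called. With a library left out the log2 change ranged from -0.112 to 0.085 for EEF1A1, -0.486 to 0.127 for MAT2A, -0.0925 to 0.125 for RPL32 and -0.0833 to 0.0761 for RPS23. RPL32 turned to -0.13 with the GC and length correction, with or without the replicate block, EIF3F to -0.20 with either form of that correction, and SRSF3 to 0.63 with the coding denominator. The cause was not tested.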
